A study of Mus musculus with 8 samples.

Results

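YFP control B cells, which had spent 2 days outside the animal, were compared with naive control B cells that went straight from the spleen into RNA preparation. The comparison used the 4 arrays whose labels put them in these groups, 2 YFP control and 2 naive control, out of 8 arrays in the series. It was read over the 20581 autosomal genes among 21515 genes with a value, because the groups differ in sex. YFP control cells came from female (C57BL6XBALBc) F1 mice of genotype YFPflSTOP/+, which carry 1 copy of a fluorescent reporter that is silent until the recombinase Cre removes a stop cassette. Their spleen B cells were enriched by depleting cells with CD43 on magnetic columns, treated with TAT-Cre, a Cre protein fused to a peptide that carries it into cells, and sorted by flow cytometry for YFP 2 days later. These arrays are labelled as re-analysed from an earlier series. Naive control cells came from male C57BL6 mice of strain B6/J and were enriched by the same CD43 depletion, with no Cre, no sort and no time in culture. RNA of both groups was taken with TRIzol and amplified with the Affymetrix WT PLUS kit. Strain, sex, TAT-Cre, the sort, the days of culture and the set of arrays all go with the group, so which of them goes with a difference cannot be told apart here. The other 4 arrays carry cells expressing LMP1, a signalling protein of Epstein-Barr virus, and cells kept for 2 days with an antibody against CD40. LMP1 cells came from the same cross and sex as YFP control, carried the alleles LMP1flSTOP/YFPflSTOP, and had the same TAT-Cre treatment and sort. CD40-activated cells came from the same strain and sex as the naive cells. Their levels are given only where they show on which arrays a gene was high, and no comparison was drawn with them, since any comparison of them with these controls would share the control arrays.

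Resting B cells of the spleen are small, hardly divide and make little protein, and they depend on signals from their surroundings to stay alive. Taking them from the organ exposes them to stress and to mechanical and chemical signals within minutes, and such signals switch on immediate-early genes and heat shock genes, whose messenger RNAs are short-lived. In culture, cells draw lipids and nutrients from the medium in place of blood, and B cells that get no survival signal tend to die.

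Of the 20581 autosomal genes 3800 passed the test (18.5%), 2220 of them higher in YFP control (10.8%) and 1580 lower (7.68%). These shares are the background against which each count of members from the fit of all arrays should be read. Fits with an array left out or with other settings called other numbers of genes. Member counts from those fits have other backgrounds, and a shift in them can be one that all genes share. The median difference over all of them was 0, and 1631 of the genes that passed differed by at least 1 on the log2 scale. A gene is called here when limma's moderated test gave a Benjamini-Hochberg adjusted p under 0.05. Values are log2 expression, differences are YFP control minus naive control in log2 units, and errors after ± are the model's standard errors with n = 2 arrays per group. A pair of levels is given for array 1 and then array 2 of a group. With 2 arrays against 2, an exact permutation test of a single gene cannot go below 0.333, so the calls rest on a spread shared by all groups and genes. The labels call the replicates biological and say no more about what separates them, so p-values measure the spread between arrays, pooled over all groups. The median standard deviation of a gene was 0.198 in YFP control and 0.156 in naive control, against 0.085 in LMP1 and 0.099 in CD40-activated. The pooled error therefore tends to understate the spread of the compared groups, and errors after ± and p-values tend to be too small. The fit of the compared groups alone, with fewer arrays to estimate the error, called 1451 genes.

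The arrays of both groups varied more than the others. Across autosomal genes the YFP control arrays correlated with r = 0.975 and the naive arrays with r = 0.981, against 0.996 for LMP1 and 0.993 for CD40-activated. YFP control 1 and 2 lay more than 1 log2 apart at 913 genes, 649 of them higher on YFP control 1, and the naive arrays at 354 genes, 225 of them higher on naive 1. Genes with wide gaps between the YFP control arrays included Scgb1a1, a secreted protein of airway cells, at 4.28 and 7.80, the cytokine gene Il1a at 5.32 and 8.11 and the histone gene H2ax at 9.52 and 6.51. Among the 3800 called genes 200 had YFP control arrays more than 1 log2 apart and 90 had naive arrays that far apart. Without YFP control 1 the fit called 5709 genes, without YFP control 2 it called 3551, without naive 1 it called 2773 and without naive 2 it called 2570. In each of these fits the group left with 1 array was assumed to vary like the others.

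**Figure D1:**
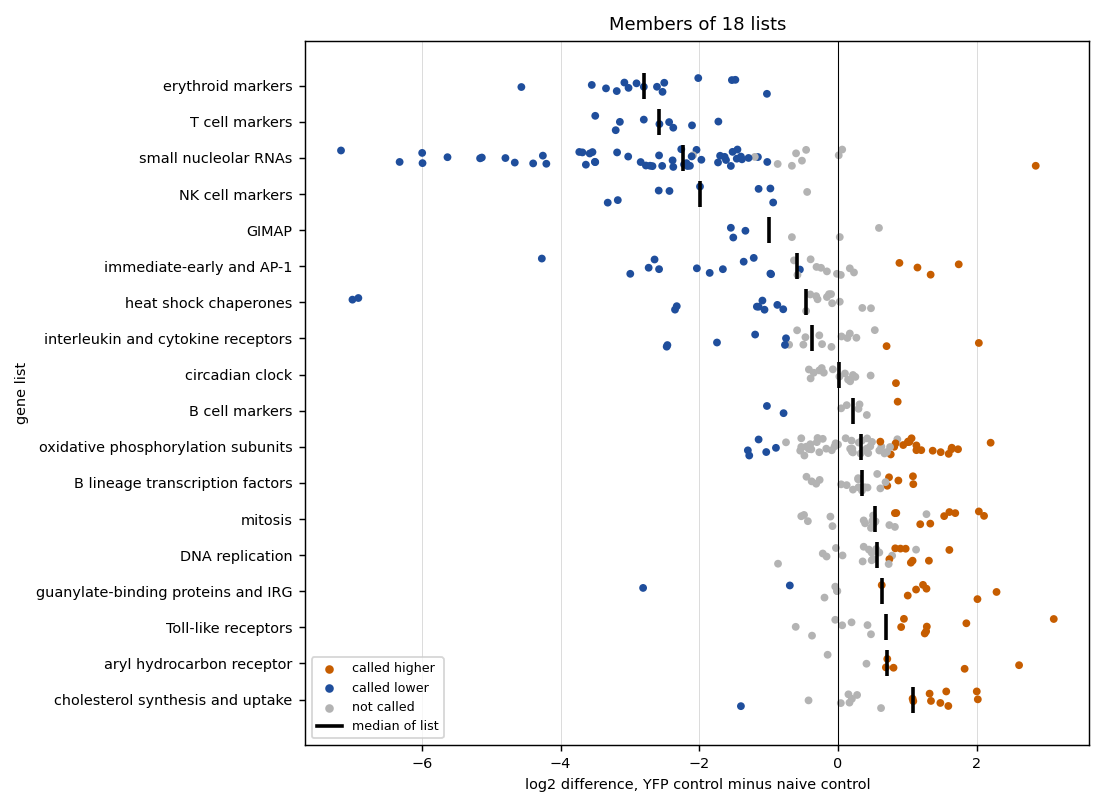
Each point is 1 autosomal gene of a list, placed by its log2 difference between YFP control and naive control (x axis), with orange for genes called higher, blue for genes called lower and grey for genes not called. Black bars are the medians of the lists plotted, which run from -2.80 for the erythroid markers to 1.08 for cholesterol synthesis and uptake, beside 0 for all autosomal genes.

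Both groups expressed the genes that define B cells. Cd79a, the signalling chain of the B cell receptor, read 12.65 and 12.62 in YFP control and 12.30 and 12.35 in naive cells, and Ms4a1, which encodes CD20, read 11.70 and 11.87 in YFP control against 11.38 and 11.36. Of 8 B cell markers 5 were not called. Cd79b, the partner of Cd79a, rose by 0.86 ± 0.17 (adjusted p = 0.00831), and its call was lost with the 4 compared arrays alone. Fcer2a, the low-affinity IgE receptor of follicular B cells, fell by 1.03 ± 0.16 (adjusted p = 0.00231), and Cr2, the complement receptor, fell by 0.79 ± 0.20 (adjusted p = 0.0259). The call of Cr2 was lost without YFP control 1 and without either naive array, with differences from -1.08 to -0.49 over the 4 fits that leave out 1 array.

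Markers of T cells, NK cells and red cell precursors were present on the naive arrays and low on the YFP control arrays. All 9 T cell markers measured were called lower in YFP control, with a median of -2.58. Cd3e, a chain of the T cell receptor complex, read 9.96 and 9.39 in naive cells and 6.11 and 6.24 in YFP control and fell by 3.5 ± 0.25 (adjusted p = 3.84e-05). Cd4, the coreceptor of helper T cells, read 8.60 and 8.33 in naive cells against 5.16 and 5.36 and fell by 3.21 ± 0.20. The log2 of the summed intensity of the 9 markers was 11.89 and 11.57 on the naive arrays, 8.63 and 9.19 on the YFP control arrays and between 8.63 and 9.10 on the other 4. On bulk arrays fewer cells of a type and less RNA per cell cannot be told apart. Of 9 NK cell markers 8 were called lower, with a median of -1.99. Klrd1, an NK receptor subunit, fell by 3.32 ± 0.21 from 7.86 and 7.32 to 4.19 and 4.35, and Gzma, a granule protease, fell by 3.18 ± 0.21. Their summed intensity had a log2 of 10.59 and 10.06 on the naive arrays and 8.11 and 8.60 on the YFP control arrays, where 5 of 9 lay under the array's lower quartile of genes.

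The erythroid markers had the most negative median of any list, -2.80, with 15 of 15 called lower. Slc4a1, the anion exchanger of red cells, read 11.15 and 9.39 on naive 1 and 2 and 5.52 and 5.89 in YFP control and fell by 4.57 ± 0.44 (adjusted p = 0.000182). Rhag, a Rhesus complex protein, read 8.65 and 6.80 in naive cells against 4.31 and 4.45. Klf1, the transcription factor of the red cell lineage, read 7.38 and 5.87 in naive cells against 5.2 and 5.09. Naive 1 was above naive 2 by a median of 1.48 over the 15 genes, and the log2 of their summed intensity was 13.26 and 11.71 on naive 1 and 2 against 9.64 and 9.47 in YFP control. The list kept 14 or 15 members called lower in every fit that left out 1 array. The call of Klf1 was lost without either YFP control array, with differences from -2.24 to -0.73. Ppbp, a platelet chemokine, fell by 2.50 ± 0.24, whereas the platelet gene Pf4 read 4.55 and 3.99 in naive cells and 3.82 and 4.34 in YFP control and was not called. Of 13 neutrophil markers 1 was called, lower, of 7 dendritic cell markers 3 were called lower (1 without either naive array), and of 5 mast cell and 8 stromal markers 0 were called, with an unadjusted limma p under 0.05 at 2 mast cell markers, both lower, and at 0 stromal markers.

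**Figure D2:**
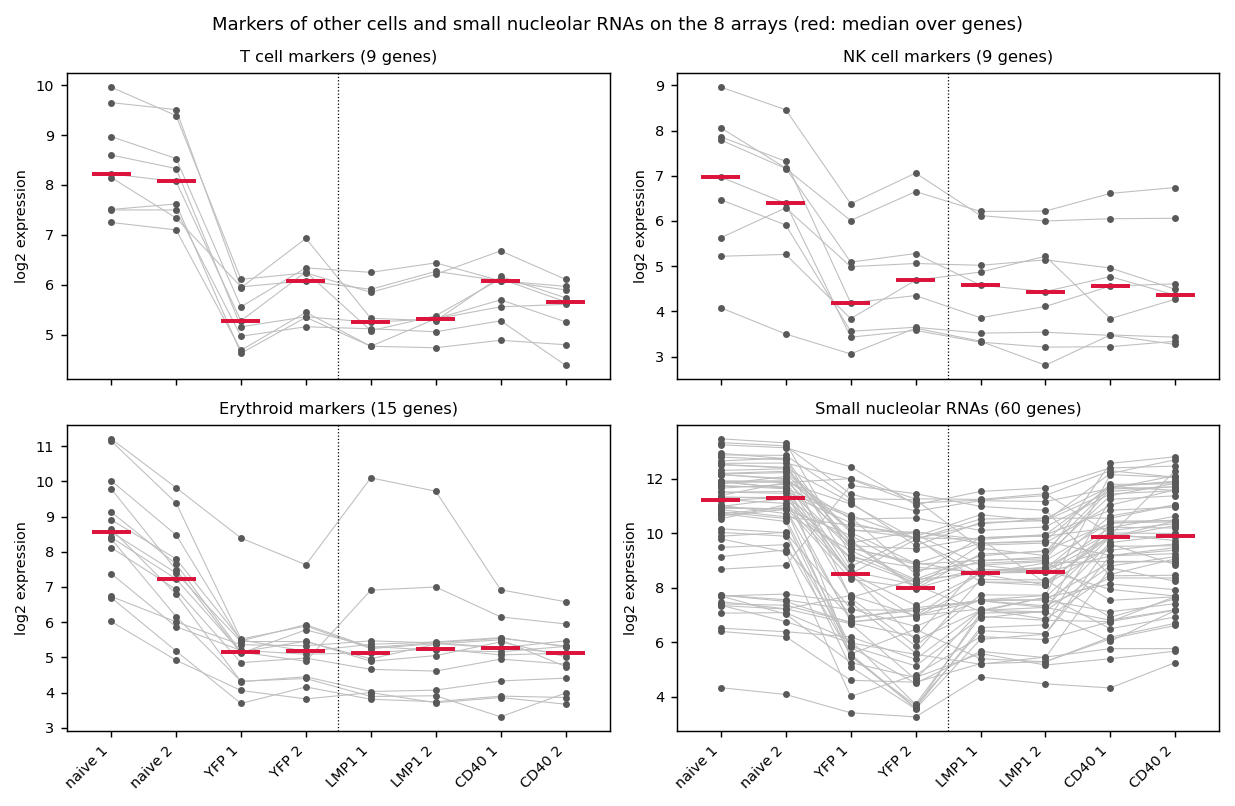
Grey points and lines are single genes followed over the 8 arrays (x axis), with log2 expression on the y axis and a red bar at the median of the list on each array. The medians on the naive arrays stand above those on the other 6 for T cell, NK cell and erythroid markers. For small nucleolar RNAs the median is 11.2 and 11.3 on the naive arrays and 8.52 and 8.01 on the YFP control arrays. Over the CD40 arrays it lies between, at 9.86, and over the LMP1 arrays it is 8.6. The YFP control and LMP1 arrays are the re-analysed ones.

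Myeloid markers did not move as a set. Of 14 monocyte and macrophage markers 2 were called higher and 1 lower. Adgre1, the F4/80 antigen of macrophages, read 7.53 and 8.03 in YFP control and 5.88 and 5.86 in naive cells and rose by 1.91 ± 0.20 (adjusted p = 0.000319). Cd68, a lysosomal glycoprotein, rose by 1.42 ± 0.25. Other defining genes were not called, with Csf1r at 5.09 and 4.82 in YFP control against 5.72 and 5.03, Cd14 at 4.54 and 4.90 in YFP control against 5.29 and 4.90 and C1qa at 5.87 and 5.96 in YFP control against 6.32 and 5.90.

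Heat shock chaperones, which refold damaged proteins, were called lower at 10 of 21 measured members and higher at 0, beside 7.68% and 10.8% of all autosomal genes, and the list median was -0.46. Heat shock factor switches these genes on by binding repeats of the letters GAA in alternating orientation, and the promoters below show those repeats, taken from RefSeq on GRCm38.p6 and read on the gene's own strand, with matched letters in capitals. The members shown had called differences and a match, and coordinates are given for the stretch printed.
Hspa1b chr17:34959310-34959367 minus strand: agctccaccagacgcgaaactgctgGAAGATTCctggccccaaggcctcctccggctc
Hsph1 chr5:149636286-149636325 minus strand: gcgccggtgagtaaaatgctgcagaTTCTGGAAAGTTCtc
Hspe1 chr1:55088034-55088101 plus strand: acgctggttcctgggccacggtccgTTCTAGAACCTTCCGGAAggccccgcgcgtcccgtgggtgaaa
Chordc1 chr9:18292238-18292296 plus strand: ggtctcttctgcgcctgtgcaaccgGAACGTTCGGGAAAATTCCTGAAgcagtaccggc
A run of 3 such units, each separated by 2 bases, was searched on both strands from 250 bases before to 50 after each start site, and was found in 5 of 23 promoters of 18 chaperone genes (21.7%) against 0.603% of 32851 promoters. The 5 include both overlapping promoters of Hsph1, which hold the same match. Among the 9 chaperones called lower that have a promoter entry, 3 held it, and Hspd1, which was not called, held the same stretch as Hspe1 on the other strand. A pair of units, GAANNTTC or TTCNNGAA, which is part of the longer match, was in 12 of 23 promoters (52.2%) against 15.1% of all, and in 7 of the 9 genes called lower. Hspa1b shows a pair and no longer run in this window. A match is a run of letters and was not measured as a bound site.

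Hspa1b and Hspa1a encode inducible HSP70 and were both among the 15 lowest named genes of the comparison. Hspa1b read 12.17 and 10.91 on naive 1 and 2 and 4.62 and 4.46 in YFP control, a fall of 7.0 ± 0.37 (adjusted p = 1.26e-05). Hspa1a read 12.19 and 9.97 in naive cells against 4.0 and 4.33 and fell by 6.92 ± 0.54 (adjusted p = 5.81e-05). The copies are near-identical, so their probes may share signal. LMP1 arrays, also of cells kept for 2 days, read 6.60 and 5.90 for Hspa1b and CD40 arrays 4.62 and 4.86, all below both naive arrays. Hsph1, an HSP70 exchange factor, read 10.19 and 9.58 in naive cells against 7.89 and 7.18 and fell by 2.35 ± 0.27, and Dnajb1, the HSP40 partner of HSP70, fell by 2.33 ± 0.27 (adjusted p = 0.000544). Hsp90aa1, the inducible HSP90, fell by 1.06 ± 0.17. Hspe1, the mitochondrial HSP10, fell by 1.09 ± 0.30 with YFP control arrays at 7.43 and 6.65 and naive arrays at 8.55 and 7.71, and its call was lost without YFP control 2 and without naive 1 (-1.51 to -0.67). Chordc1, an HSP90 cochaperone, fell by 0.79 ± 0.16.

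Several constitutive members were not called. Hspa8, the HSC70 of resting cells, read 12.14 and 11.85 in YFP control and 12.17 and 12.02 in naive cells, a difference of -0.10 that was not called. Hspd1, the mitochondrial HSP60, differed by -0.40 and Stip1, which links HSP70 to HSP90, by -0.16, and neither was called. Hspa4, an HSP110 relative, was 0.48 higher with an adjusted p of 0.0653. The chaperones of the endoplasmic reticulum were divided. Hspa5, the BiP chaperone, fell by 1.41 ± 0.20 (adjusted p = 0.0014) and Atf4, the transcription factor of the amino acid and stress response, by 1.20 ± 0.22, while Xbp1, which drives secretory capacity, rose by 1.28 ± 0.17 and Sdf2l1 by 1.43 ± 0.22. Of 20 genes of the unfolded protein response and ATF4 list 4 rose and 5 fell.

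**Figure D3:**
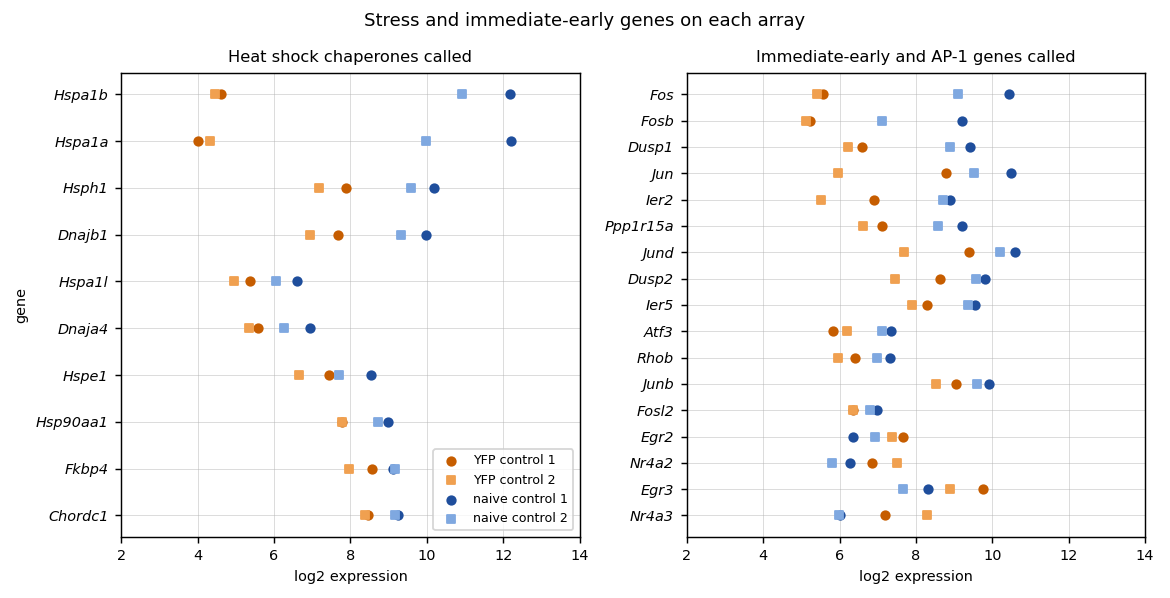
Rows are the called heat shock chaperones (left) and immediate-early genes (right), ordered by difference, and the x axis is log2 expression on each of the 4 arrays (orange YFP control, blue naive; circles array 1, squares array 2). Hspa1a lies at 12.19 and 9.97 on naive 1 and 2 and at 4.0 and 4.33 on the YFP control arrays, the widest gap beside that of Hspa1b.

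Immediate-early genes had called members in both directions, more of them lower than higher in YFP control, and 10 members were not called. Of 27 measured genes 13 were called lower and 4 higher, with a median of -0.59. Without naive 1 the count called lower was 8, and without naive 2 the count called higher was 2. Fos, the partner of Jun in the AP-1 factor, read 10.43 and 9.11 in naive cells and 5.58 and 5.42 in YFP control and fell by 4.27 ± 0.35 (adjusted p = 8.54e-05). Fosb, a relative of Fos, read 9.21 and 7.12 in naive cells against 5.23 and 5.11 and fell by 3.0 ± 0.51, and Dusp1, a phosphatase that switches off MAP kinases, read 9.41 and 8.88 in naive cells against 6.60 and 6.23 and fell by 2.73 ± 0.23 (adjusted p = 8.63e-05). The naive and YFP control arrays did not overlap for any of the 3, and naive 1 was the higher naive array for each. The difference of Fosb ran from -4.04 to -1.95 when 1 array was left out. Ier2 fell by 2.58 ± 0.36, Ppp1r15a, which restarts translation after stress, by 2.04 ± 0.25, and Atf3, a stress-induced factor, by 1.22 ± 0.20. Jun fell by 2.65 ± 0.73 with uneven YFP control arrays at 8.78 and 5.95 and naive arrays at 10.49 and 9.53, and its call was lost without YFP control 2 and without either naive array (-4.06 to -1.23). LMP1 arrays read 9.82 and 9.49 for Jun and CD40 arrays 5.42 and 6.30.

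The 4 genes that rose were nuclear receptors and zinc finger factors that antigen receptor signals also induce. Nr4a3 read 7.20 and 8.29 in YFP control and 6.02 and 5.99 in naive cells and rose by 1.74 ± 0.30 (adjusted p = 0.00352). Egr3 rose by 1.34 ± 0.29, Nr4a2 by 1.15 ± 0.26 and Egr2 by 0.89 ± 0.21. Each of the last 3 lost its call in at least 1 fit that left out an array. The ranges over those fits were 0.91 to 1.77 for Egr3, 0.82 to 1.47 for Nr4a2 and 0.59 to 1.18 for Egr2. Nr4a1, a marker of antigen receptor signalling, read 9.22 and 7.95 in YFP control against 8.71 and 8.49 and Egr1 read 7.23 and 6.32 in YFP control against 7.43 and 7.29, and neither was called. Klf2, which keeps lymphocytes resting and is lost on activation, fell by 1.98 ± 0.38 from 10.62 and 10.39 to 9.29 and 7.76 (from -2.75 to -1.22 when 1 array was left out), and Txnip, an inhibitor of glucose uptake, fell by 1.36 ± 0.23.

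The cAMP response element, by which kinase signals reach immediate-early promoters, was looked for in the same windows. The stretches below show, in capitals, the element in Dusp1 and a variant of it in Fosb, both called lower, from RefSeq on GRCm38.p6 on the gene's own strand.
Dusp1 chr17:26508583-26508640 minus strand: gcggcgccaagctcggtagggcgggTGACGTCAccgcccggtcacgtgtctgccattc
Fosb chr7:19310073-19310130 minus strand: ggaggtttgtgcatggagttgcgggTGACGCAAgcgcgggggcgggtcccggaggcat
The letters TGACGTCA, on either strand, were in 3 of 32 promoters of 23 immediate-early genes (9.38%), those of Dusp1, Maff and Ppp1r15a, against 1.79% of all promoters. Among genes with a promoter entry, 2 of 12 called lower and 0 of 3 called higher held these letters, and Maff was not called. The variant TGACGCAA was in the promoter of Fosb alone of the 32, against 0.49% of all. The AP-1 site TGACTCA was in 1 of 32 (3.12%), that of Csrnp1, against 5.2% of all.

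Clock genes were nearly level. Of 15 measured clock genes 1 was called. Bhlhe40, which represses the clock and is also induced by activation, rose by 0.84 ± 0.23 (adjusted p = 0.0306), and its call was lost without YFP control 1 and without either naive array (0.48 to 1.19). Per1 read 8.97 and 8.60 in YFP control and 8.93 and 8.60 in naive cells, Dbp 7.30 and 7.03 in YFP control against 7.46 and 7.28, and Arntl, which encodes BMAL1, 8.16 and 8.34 in YFP control against 8.18 and 8.47. The differences of the other 14 lay between -0.42 and 0.47. The E-box CACGTG, through which BMAL1 acts, was in 5 of 19 promoters of 14 clock genes (26.3%) against 7.15% of all.

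Small nucleolar RNAs, short RNAs cut from introns that guide modification of ribosomal RNA, were the gene list with the most members called lower. Of 60 measured ones 50 were called lower and 1 higher, with a median of -2.24, and 10 of the 15 lowest named genes of the comparison belonged to them. Snord110 read 12.79 and 12.69 in naive cells and 7.62 and 5.87 in YFP control and fell by 6.0 ± 0.43 (adjusted p = 3.77e-05). Snord72 read 10.72 and 10.43 in naive cells against 5.48 and 3.69 and fell by 5.99 ± 0.44. Snord73a read 10.78 and 10.54 in naive cells against 5.86 and 5.14 and fell by 5.16 ± 0.25 (adjusted p = 7.78e-06). Naive 1 and 2 differed by a median of 0.06 over the list, whereas YFP control 2 was below YFP control 1 by a median of 0.64. Box C/D and box H/ACA classes, which guide methylation and pseudouridylation, moved alike, with 34 of 41 Snord genes lower and a median of -2.26, and 16 of 19 Snora genes lower and a median of -2.22. All 5 small Cajal body RNAs were called lower too, among them Scarna10 at 12.49 and 12.31 in naive cells against 8.19 and 7.06. Snord53 went the other way, at 11.75 and 11.45 in YFP control and 8.68 and 8.82 in naive cells, a rise of 2.85 ± 0.17. The count called lower stayed between 44 and 52 when 1 array was left out. The median level of the 41 Snord genes was 8.52 and 7.98 on the YFP control arrays and 8.60 over the LMP1 arrays, both re-analysed. It was 11.33 and 11.28 on the naive arrays and 10.15 over the CD40 arrays. The CD40 arrays were nearer the re-analysed ones for the 19 Snora genes, at 9.28 against 8.59 over LMP1 and 11.19 and 11.27 in naive cells. The 5 Cajal body RNAs read 9.4 over CD40, 8.4 over LMP1, 9.55 and 8.26 in YFP control and 11.26 and 11.2 in naive cells. The set of arrays and the culture cannot be told apart for YFP control and naive cells.

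Most genes within which these small RNAs lie were not called. Of the 60 small nucleolar and 5 Cajal body RNAs 42 lie within exactly 1 longer gene that was measured, by position in RefSeq's gene table of GRCm38.p6, an analysis added after the values were seen. The 42 had a median of -2.30, their 32 distinct host genes a median of -0.06, and 40 of the 42 were more negative than their host. Of the hosts 4 were called lower, 4 higher and 24 were not called. Sf3b3, a spliceosome gene that holds Snord111, differed by -0.01, while Snord111 fell by 4.80 ± 0.36. Nop56, a box C/D protein gene that holds Snord110, differed by -0.45 and was not called. Snhg3, a host transcript with no known protein, was called higher by 1.06, while Snora73b within it fell by 2.71 ± 0.18. Rabggtb, a subunit of the enzyme that adds lipid to Rab proteins, was not one of the 32 hosts counted here. It was among the 15 lowest genes at 9.69 and 9.71 in naive cells and 5.96 and 4.25 in YFP control. Of 388 microRNA precursors 63 were called lower and 33 higher, with a median of -0.13.

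**Figure D4:**
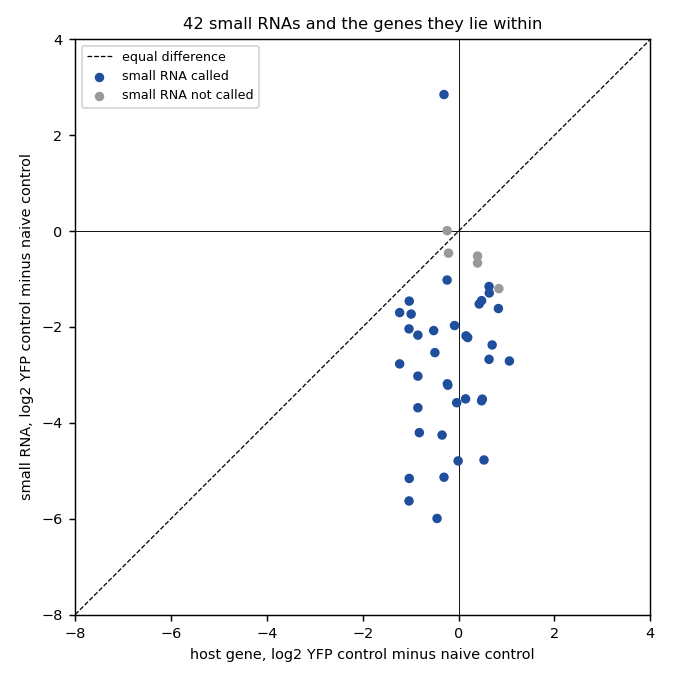
Each point is 1 of 42 small nucleolar or Cajal body RNAs, with the log2 difference of its host gene on the x axis and its own on the y axis, blue where the small RNA was called. Points lie under the dashed line of equal difference for 40 of 42, with hosts spread around 0.

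Genes for cytosolic ribosomal proteins had no common direction, with 6 of 44 higher, 9 lower and a median of 0.04, and with 4 lower without either naive array. Rps20 fell by 3.98 ± 0.38 from 8.98 and 8.64 to 5.32 and 4.34, and Rps26 rose by 1.63 ± 0.17 from 10.99 and 11 to 12.55 and 12.70. Multiple near-identical pseudogenes exist for such genes, so single values are uncertain. Mitochondrial genes encoded in the nucleus leaned upward, with 22 of 69 mitochondrial ribosomal proteins called higher and 4 lower (median 0.25) and 19 of 64 subunits of oxidative phosphorylation called higher and 5 lower (median 0.34). Ndufv2, a complex I subunit, read 10.06 and 9.68 in YFP control and 7.66 and 7.68 in naive cells and rose by 2.2 ± 0.18 (adjusted p = 8.27e-05). Mrpl57 rose by 1.83 ± 0.18. Mpc1, which lets pyruvate into mitochondria, was among the 15 highest genes, at 10.97 and 11.73 in YFP control against 7.56 and 7.69, a rise of 3.73 ± 0.23 (adjusted p = 2.24e-05). When 1 array was left out, the counts called higher ran from 15 to 24 of 69 and from 15 to 23 of 64, and without YFP control 1 the counts called lower were 13 and 9. Of 38 proteasome subunits 6 rose and 4 fell, near the background shares, and the counts moved to 11 higher without YFP control 2 and 9 lower without YFP control 1, with Psmb5, the chymotrypsin-like subunit, up by 2.09 ± 0.22 and its immune counterpart Psmb8 down by 0.92 ± 0.26. The call of Psmb8 was lost without YFP control 2 and without either naive array (-1.34 to -0.49).

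With all arrays, genes of the cell cycle were more often called higher than lower in YFP control. Without naive 2 this did not hold for the cyclin list or, as given below, for the mitosis genes. Mki67, the proliferation antigen, was not called, at 9.41 and 9.73 in YFP control and 10.67 and 9.34 in naive cells. Of 25 DNA replication genes 8 rose and 0 fell, with a median of 0.56, and the count called higher stayed between 6 and 11 when 1 array was left out. Pole, the leading-strand polymerase, read 7.69 and 7.65 in YFP control against 6.36 and 5.77 and rose by 1.61 ± 0.20 (adjusted p = 0.000772), and Mcm4, a subunit of the replicative helicase, rose by 1.31 ± 0.17. Of 21 cyclins, kinases and inhibitors 7 rose and 2 fell, and without naive 2 the count called higher was 2. Cdk4, the kinase of early G1, read 10.58 and 10.63 in YFP control and 8.78 and 8.63 in naive cells, a rise of 1.90 ± 0.16 (adjusted p = 8.27e-05). E2f3 rose by 1.31 ± 0.22, Rb1 by 0.81 ± 0.17 and Rbl1 by 0.59 ± 0.16. The genes called lower were Cdk6, another kinase of the list, down by 0.65 ± 0.16, and Cdkn2d, a CDK4 inhibitor, down by 1.5 ± 0.30. The call of Cdkn2d was lost without naive 1 (-1.96 to -1.03). LMP1 arrays read 11.68 and 11.64 for Cdk4 and CD40 arrays 10.99 and 10.96.

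The mitosis genes depended on which naive array was used. With all arrays 9 of 25 were called higher and 0 lower, with a median of 0.54, but naive 1 stood above naive 2 by a median of 0.86. Without naive 1 the counts were 16 higher and 0 lower, and without naive 2 they were 3 higher and 3 lower. Without YFP control 2 the count was 4 higher. Aurkb, the kinase of chromosome segregation, read 8.81 and 8.91 in YFP control and 7.17 and 6.49 on naive 1 and 2 and rose by 2.03 ± 0.23 (adjusted p = 0.000436), from 1.69 to 2.37 over the fits that left out 1 array. Bub1, a spindle checkpoint kinase, read 6.68 and 8.25 in YFP control against 5.77 and 4.95, and its call was lost without naive 2 (1.32 to 2.89). Top2a, a topoisomerase, read 8.31 and 8.25 in YFP control against 8.49 and 6.59, so that naive 1 lay above both YFP control arrays and naive 2 below them, and it was not called. Naive 1 was also the naive array with the higher erythroid markers, and the part of red cell precursors in its mitosis genes was not tested. Cks2, a small CDK-binding protein, was among the 15 highest genes, at 9.58 and 11.04 in YFP control against 7.24 and 6.54, and H2ac15, a histone H2A gene, read 6.53 and 6.69 in YFP control against 3.79 and 2.89. Of 22 replication-dependent histone genes 2 rose and 1 fell. Of 21 genes of MYC and ribosome biogenesis 3 rose and 1 fell, and the balance turned with the YFP control array left out, to 2 higher and 5 lower without array 1 and 5 higher and 1 lower without array 2. Srm, which makes spermidine, rose by 1.73 ± 0.24, and Nop58, a box C/D small nucleolar protein, fell by 1.04 ± 0.22, with its call lost without either naive array (-1.39 to -0.68).

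Cholesterol synthesis and uptake had a median of 1.08, the highest of the lists with more than 2 genes, with 9 of 17 genes called higher and 1 lower. Fdps, which makes farnesyl diphosphate, read 9.0 and 8.66 in YFP control and 6.65 and 6.98 in naive cells and rose by 2.02 ± 0.21 (adjusted p = 0.000269). Fdft1, the first enzyme committed to sterols, read 9.58 and 10.06 in YFP control against 7.97 and 7.67 and rose by 2.0 ± 0.21 (adjusted p = 0.000291). The groups did not overlap for either gene. Hsd17b7 rose by 1.59 ± 0.20, Insig1, the sterol sensor that holds back SREBP, by 1.56 ± 0.18, Sqle, squalene epoxidase, by 1.48 ± 0.20 and Hmgcs1, which makes the precursor of mevalonate, by 1.09 ± 0.16. Each kept its call when any 1 array was left out, and the list counted 9 to 11 called higher in those fits. Pmvk, a kinase of the mevalonate pathway, fell by 1.40 ± 0.26, and Srebf2, which encodes the transcription factor of the pathway, read 10.61 and 9.59 in YFP control against 10.11 and 9.79 and was not called. SREBP binds sterol regulatory elements, and the promoter of Hmgcs1 is shown because it held one, in capitals, from RefSeq on GRCm38.p6.
Hmgcs1 chr13:119690189-119690247 plus strand: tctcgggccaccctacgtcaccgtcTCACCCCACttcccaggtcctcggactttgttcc
The letters TCACNCCAC, on either strand, were in this 1 of 16 promoters of 13 members (6.25%) against 1.24% of all promoters.

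Related lipid genes moved in both directions. Fads2 and Fads1, the desaturases that make long polyunsaturated fatty acids, rose by 2.16 ± 0.36 and 1.58 ± 0.20, and Scd1, the stearoyl desaturase, by 0.86 ± 0.17. Acss2, which makes acetyl-CoA from acetate, fell by 0.86 ± 0.18, and its call was lost without naive 1 (-1.03 to -0.69). Abca1, the cholesterol exporter that the LXR receptors induce, read 9.27 and 9.47 in naive cells and 8.57 and 8.20 in YFP control and fell by 0.99 ± 0.19 (adjusted p = 0.00651). Apoe, a lipoprotein carrier, rose by 1.41 ± 0.40 with YFP control at 10.18 and 8.57 and naive cells at 7.96 and 7.97, and its call was lost without either naive array (0.61 to 2.22). Of 10 fatty acid synthesis genes 3 rose and 1 fell, and of 6 sterol efflux and LXR target genes 1 rose and 2 fell.

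The aryl hydrocarbon receptor gene and 4 other genes of its list of 7 were called higher in YFP control and 0 lower (median 0.71), against 2 called higher without naive 1. The targets Cyp1b1 and Nqo1 were not called, with differences of 0.41 and -0.15. The receptor senses indoles and other flat ring compounds and then acts as a transcription factor. Ahr itself read 7.89 and 8.46 in YFP control and 5.83 and 5.30 in naive cells and rose by 2.61 ± 0.24 (adjusted p = 0.000163). Tiparp, its feedback inhibitor, read 9.41 and 9.44 in YFP control against 7.64 and 7.56 and rose by 1.83 ± 0.19 (adjusted p = 0.000269). Ahrr, the repressor of the receptor, rose by 0.80 ± 0.17 and Cyp1a1, its classical target, by 0.71 ± 0.18, both from levels near or under the array median. Both calls were lost in 1 or more fits that left out an array, with ranges of 0.66 to 0.94 for Ahrr and 0.60 to 0.83 for Cyp1a1. LMP1 arrays read 6.04 and 5.73 for Ahr and CD40 arrays 9.47 and 9.59, so that Ahr was low on LMP1 arrays of the same cross, treatment and sort and high on CD40 arrays.

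**Figure D5:**
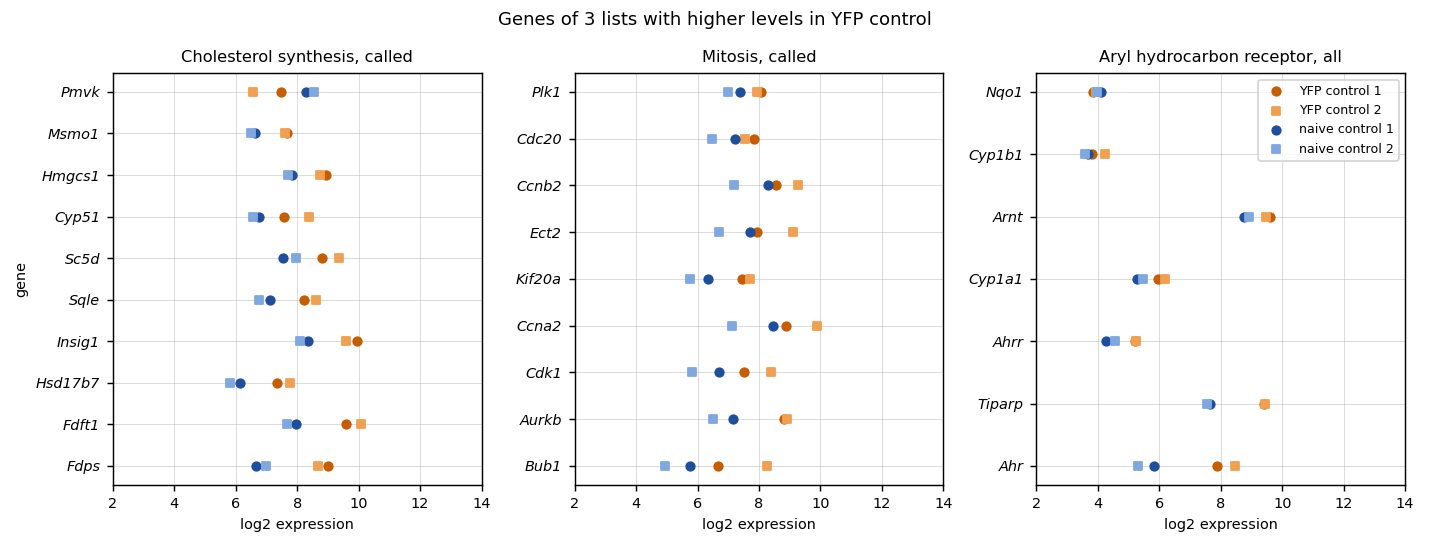
Rows are the called genes of cholesterol synthesis and of mitosis and all genes of the aryl hydrocarbon receptor list, and the x axis is log2 expression on each of the 4 arrays (orange YFP control, blue naive; circles array 1, squares array 2). The gap between the naive arrays is wide for mitosis genes such as Ccna2, at 8.45 and 7.12, and narrow for Fdft1, at 7.97 and 7.67.

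Some redox and metal-binding genes rose. Txn1, thioredoxin, read 10.18 and 10.57 in YFP control and 7.22 and 7.69 in naive cells and rose by 2.92 ± 0.23 (adjusted p = 6.72e-05), and the metallothioneins Mt2 and Mt1 rose by 2.97 ± 0.40 and 1.45 ± 0.26. Nfe2l2, which encodes NRF2, rose by 1.29 ± 0.19, whereas Nqo1, a classical NRF2 target, read 3.86 and 3.94 in YFP control against 4.11 and 3.99, dim on all 4 arrays. The list counted 5 of 17 higher and 1 lower. Of 15 glycolysis genes 4 rose and 2 fell, but 3 were higher and 6 lower without YFP control 1, and 2 were higher without either naive array. Tpi1 rose by 1.47 ± 0.24 and Pgam1 by 1.44 ± 0.18, and Pdk1, which holds pyruvate out of the citric acid cycle, fell by 1.13 ± 0.16. Of 12 hypoxia targets 2 rose and 3 fell, with 1 lower without naive 1 and 0 lower without naive 2. Of 18 genes of amino acid supply 3 rose, among them Psat1 of serine synthesis by 1.49 ± 0.18, and 0 fell, with 5 higher and 3 lower without YFP control 1. Of 10 glucocorticoid targets 3 fell, among them Dusp1 and Il7r, and 0 rose.

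The chemokine gene Ccl22, which draws T cells, was the second highest of the named genes, rising from 4.91 and 5.29 in naive cells to 9.67 and 10.88 in YFP control, a difference of 5.18 ± 0.35. Over 31 cytokines and chemokines 7 rose and 3 fell, and without YFP control 1 the count called higher was 11. Tgfb3, a form of transforming growth factor beta, read 9.52 and 9.20 in YFP control against 5.62 and 5.80 and rose by 3.65 ± 0.21 (adjusted p = 1.56e-05), while LMP1 arrays read 5.21 and 4.72 and CD40 arrays 5.82 and 5.77. Ccl3 rose by 1.80 ± 0.32, Il12a by 1.28 ± 0.18 and Il10, an anti-inflammatory cytokine, by 1.22 ± 0.30, with the call of Il10 lost without YFP control 2 and without naive 2 (0.70 to 1.74). Ltb and Lta, which encode lymphotoxins that organise lymphoid tissue, fell by 2.64 ± 0.39 and 1.18 ± 0.19, with Ltb at 10.74 and 10.98 in naive cells and 9.01 and 7.43 in YFP control. Ccl5, which T and NK cells also make, fell by 1.69 ± 0.24. Of 12 costimulatory ligands 5 rose and 2 fell. Cd86 rose by 1.14 ± 0.20 (adjusted p = 0.0037) and Icosl, the ligand of ICOS, fell by 1.14 ± 0.21 from 10.40 and 10.39 to 9.58 and 8.93. Cd80 read 6.46 and 8.23 in YFP control and 4.75 and 4.67 in naive cells, with no overlap although the YFP control arrays were far apart. Havcr1, which encodes TIM-1, rose by 1.85 ± 0.22.

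Several receptor genes fell that T and NK cells also express, along with the markers of those cells. Il7r, the interleukin-7 receptor, fell by 2.47 ± 0.23 from 9.44 and 9.18 to 6.66 and 7.02, Il2rb by 2.46 ± 0.17 and Il18r1 by 1.75 ± 0.20. Cd27, a TNF receptor of T cells and memory B cells, fell by 2.59 ± 0.18 (adjusted p = 3.32e-05), Cd5, a marker of T and B1 cells, by 1.77 ± 0.19 and Itgax, an integrin of dendritic and NK cells, by 1.87 ± 0.19. Of 6 GIMAP genes, GTPases of lymphocyte survival, 3 fell, with Gimap6 down by 1.34 ± 0.16, and 0 rose. In the same comparison 9 of 9 T cell and 8 of 9 NK cell markers fell, and their part in these falls was not tested. Over 20 interleukin and cytokine receptors 6 fell (11 without YFP control 1) and 2 rose, of which Il2ra, the high-affinity interleukin-2 receptor chain, read 8.52 and 10.15 in YFP control against 7.22 and 7.39. The call of Il2ra was lost without naive 1 (1.22 to 2.85).

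Of 17 chemokine and homing receptors 4 rose and 1 fell, and without YFP control 2 the count called higher was 2 and without YFP control 1 the count called lower was 3. S1pr3, a sphingosine 1-phosphate receptor of marginal zone B cells, read 9.67 and 9.98 in YFP control and 6.31 and 5.90 in naive cells and rose by 3.72 ± 0.20 (adjusted p = 1.26e-05), with CD40 arrays at 9.73 and 9.90 and LMP1 arrays at 6.54 and 6.42. Ccr6, the receptor for CCL20, rose by 1.98 ± 0.17 from 8.32 and 8.02 to 10.24 and 10.05 (adjusted p = 0.000115). S1pr1, which lets lymphocytes leave tissue, read 10.55 and 9.71 in YFP control against 10.32 and 10.10, and Cxcr4, the receptor that holds them in marrow, read 11.11 and 10.39 in YFP control against 11.45 and 11.44, and neither was called. Among 17 genes of marginal zone and B1 cells 5 rose and 4 fell (3 higher without naive 1 and 2 lower without either naive array), with Plac8 up by 2.06 ± 0.19 and Bhlhe41, a factor of B1 cells, up by 2.19 ± 0.24 (adjusted p = 0.000392), against falls of Cd5 and Cr2. Of 21 integrins and adhesion genes 2 rose (4 without YFP control 2) and 5 fell (8 without YFP control 1). Alcam rose by 1.96 ± 0.16, and Itgb3, the beta 3 integrin, fell by 1.23 ± 0.17.

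The list of Toll-like receptors, which sense microbial products, and of proteins that work with them was among those with a high share called higher. Of its 14 genes 7 were called higher and 0 lower, with a median of 0.69. Tlr9, which senses DNA, read 10.43 and 10.65 in YFP control and 9.38 and 9.20 in naive cells and rose by 1.25 ± 0.17 (adjusted p = 0.0012). Myd88, the adaptor of most of these receptors, rose by 1.28 ± 0.17 and Ly86, the partner of Cd180, by 1.27 ± 0.21. Tlr6 rose by 1.85 ± 0.29, and Ly96, the partner of TLR4, read 8.55 and 10.76 in YFP control against 6.50 and 6.59. The guanylate-binding proteins and immunity-related GTPases, which interferon gamma induces, counted 7 of 13 higher and 2 lower (median 0.63). Igtp read 8.99 and 9.22 in YFP control against 6.66 and 6.98 and rose by 2.29 ± 0.18 (adjusted p = 7.50e-05) and Irgm2 rose by 2.01 ± 0.18, whereas Gbp8 fell by 2.81 ± 0.18 from 8.43 and 8.63 to 5.66 and 5.78. LMP1 arrays read 7.22 and 7.09 for Gbp8 and CD40 arrays 5.47 and 5.84. The count called higher was 4 to 6 of 13 when 1 array was left out.

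Of 27 genes induced by type I interferon 5 were called higher and 2 lower, and the balance turned with single arrays, to 3 higher and 5 lower without YFP control 1 and to 2 higher and 2 lower without naive 2. Rsad2, an antiviral enzyme, fell by 2.64 ± 0.36 from 9.01 and 7.66 on naive 1 and 2 to 5.46 and 5.93, and Isg15, a ubiquitin-like modifier, fell by 1.46 ± 0.21, whereas Trim30a rose by 1.66 ± 0.21 and Zbp1, a nucleic acid sensor, by 1.46 ± 0.19. Of 9 genes of the interferon-activated p200 family 3 rose and 0 fell. Ifi214 read 10.34 and 9.85 in YFP control and 8.32 and 8.14 in naive cells, while CD40 arrays of the naive strain read 5.29 and 5.95 and LMP1 arrays of the F1 cross 4.36 and 4.29. Members of these families are close copies that differ between mouse strains, so the values of single members are uncertain.

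H2-Ea, the E alpha chain of MHC class II, was the highest of the named genes, rising from 5.29 and 5.13 in naive cells to 12.65 and 12.67 in YFP control, a difference of 7.45 ± 0.16 (adjusted p = 2.48e-08). C57BL/6 mice carry a deletion at this gene and do not express it, BALB/c mice do, and RefSeq lists it as a pseudogene for this strain. The other arrays divided by strain as well, with LMP1 arrays of the F1 cross at 10.42 and 10.55 and CD40 arrays of the naive strain at 5.01 and 5.2. Nnt, which is partly deleted in C57BL/6J, read 8.19 and 8.10 in YFP control, 7.61 and 7.62 in naive cells and 8.02 and 8.27 on CD40 arrays of the naive strain, and was not called. The classical class II genes H2-Aa, H2-Ab1 and H2-Eb1 were not called, with H2-Ab1 at 12.34 and 11.91 in YFP control against 12.43 and 12.44. H2-DMa, which edits class II peptides, rose by 0.84 ± 0.15, and Ctss, cathepsin S, fell by 1.10 ± 0.23. The call of Ctss was lost without naive 2 (-1.47 to -0.72). Over 13 class II genes 3 rose and 1 fell, and over 14 class I genes 2 rose and 1 fell. B2m, the light chain of class I, rose by 0.69 ± 0.17, with its call lost without YFP control 2 and without naive 1 (0.56 to 0.83).

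Of 21 transcription factors of the B lineage 5 rose and 0 fell, with a median of 0.35, and 10 were higher at an unadjusted limma p under 0.05. The count called higher was 2 without naive 1, 3 without naive 2 and 8 without YFP control 2. Irf8 read 11.23 and 11.24 in YFP control and 10.25 and 10.06 in naive cells and rose by 1.08 ± 0.16 (adjusted p = 0.00176). Pou2af1, the B cell coactivator OBF-1, rose by 0.74 ± 0.17, Bach2, which restrains plasma cell fate, by 0.71 ± 0.20, Id3 by 0.87 ± 0.23 and Zbtb32 by 1.09 ± 0.25, and each of these 4 lost its call in at least 1 fit that left out an array. Their ranges were 0.61 to 0.87 for Pou2af1, 0.48 to 0.95 for Bach2, 0.51 to 1.24 for Id3 and 0.70 to 1.47 for Zbtb32. Pax5, which maintains B cell identity, read 10.54 and 9.94 in YFP control against 10.11 and 10.28, Ebf1 10.91 and 10.92 in YFP control against 10.78 and 10.80, Bcl6 9.40 and 9.07 in YFP control against 8.91 and 8.71, Irf4 9.74 and 9.22 in YFP control against 9.27 and 9.11, and Prdm1, the driver of plasma cells, 6.82 and 7.06 in YFP control against 6.46 and 6.73, and none of these was called, with adjusted p from 0.145 for Bcl6 to 0.914 for Pax5.

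Of 14 plasmablast genes 6 rose and 1 fell. Jchain, which joins secreted antibody, rose by 1.01 ± 0.17, Slamf7 by 1.40 ± 0.17 and Tram2 by 1.44 ± 0.24, while Ell2, which favours the secreted form of antibody, fell by 2.30 ± 0.17 from 11.85 and 12.05 to 9.70 and 9.61 (adjusted p = 4.30e-05). Mzb1, an endoplasmic reticulum protein of antibody-secreting cells, was not called. Of 2 immunoglobulin constant genes with a value, Ighg3 rose by 2.54 ± 0.35 with naive arrays at 6.47 and 7.82 and YFP control at 9.78 and 9.59, and Ighm read 11.35 and 10.76 in YFP control against 11.15 and 11.13 and was not called. Of 21 genes of the B cell receptor and its coreceptors 5 rose and 2 fell (3 higher without either naive array, 8 without YFP control 2, and 5 lower without YFP control 1), with Fcrla up by 1.63 ± 0.18 and Fcrl5 up by 2.58 ± 0.40, the latter uneven at 8.47 and 10.11. Syk, the kinase next to the receptor, fell by 0.88 ± 0.20, and its call was lost without naive 2 (-1.15 to -0.62).

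Survival genes and NF-kB genes had no common direction. Of 21 genes of the BCL2 family and apoptosis 5 rose and 3 fell, and without YFP control 1 the count called lower was 7. Pmaip1, which encodes the death-promoting NOXA, fell by 1.98 ± 0.21 from 7.85 and 7.85 to 6.05 and 5.69 (adjusted p = 0.000299), Bcl2a1a, an A1 survival gene with close copies, rose by 1.68 ± 0.21, and Bak1, an effector of cell death, rose by 0.92 ± 0.17. Bcl2l11, which encodes BIM, rose by 0.88 ± 0.22, with its call lost without YFP control 1 and without naive 2 (0.60 to 1.16). Mcl1 and Bcl2 were not called, with Mcl1 at 10.69 and 9.37 in YFP control and 10.89 and 10.95 in naive cells. Among 22 genes of NF-kB 3 rose and 4 fell, against 8 lower without YFP control 1 and 7 higher without YFP control 2. Nfkbia, the inhibitor induced by NF-kB itself, fell by 1.05 ± 0.15 from 10.54 and 10.62 to 9.52 and 9.55 (adjusted p = 0.00182), and Nfkb2 fell by 1.61 ± 0.27, whereas Rel, the c-Rel subunit, rose by 1.11 ± 0.17. LMP1 arrays read 11.44 and 11.51 for Nfkbia and CD40 arrays 10.74 and 10.81. Of 16 TNF receptors 2 rose and 2 fell, and Tnfrsf13c, the receptor for the survival factor BAFF, rose by 0.78 ± 0.16. Of 16 p53 targets 4 rose (2 without naive 2) and 1 fell, with Ccng1 up by 1.99 ± 0.28 and Cdkn1a not called.

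Several of the highest genes had high levels on the YFP control arrays and lower levels on the other 6. Crisp3, a secreted cysteine-rich protein, read 9.49 and 10.54 in YFP control, 5.89 and 5.21 in naive cells, 3.56 and 4.04 on LMP1 arrays and 5.30 and 5.75 on CD40 arrays, and rose by 4.47 ± 0.35 (adjusted p = 6.72e-05). Jhy, a gene of ciliated cells, rose by 3.51 ± 0.21, the antisense gene Pla2g10os by 3.72 ± 0.23 and the pheromone receptor gene Vmn1r94 by 3.19 ± 0.22. Wfdc17, a secreted protease inhibitor, read 8.80 and 10.61 in YFP control against 6.22 and 6.04. Gnpda1, of amino sugar metabolism, rose by 3.5 ± 0.25 and was high on LMP1 arrays at 7.95 and 8.08 and CD40 arrays at 8.37 and 8.26. The 2 microRNA loci among the 15 highest genes are shown by their mature sequence, from RefSeq on GRCm38.p6, with the seed (bases 2 to 8) in capitals, because the seeds differ.
Mir101c, chr9:3038680-3038698 minus strand: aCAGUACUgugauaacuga
Mir680-1, chr6:129691541-129691561 plus strand: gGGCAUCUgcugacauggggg
Mir101c read 8.20 and 8.94 in YFP control and 4.82 and 5.43 in naive cells and rose by 3.45 ± 0.35, and Mir680-1 rose by 3.49 ± 0.40. The arrays read the locus and not the mature RNA, and other RefSeq loci give the same mature miR-680.

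Chromatin genes and the cytoskeleton had members on both sides. Ezh2, the methyltransferase of Polycomb complex 2, read 9.97 and 10.73 in YFP control and 8.39 and 8.23 in naive cells and rose by 2.04 ± 0.23 (adjusted p = 0.000507), and Rbbp4, which works in the same complex, rose by 1.24 ± 0.22. The list of DNA methylation and Polycomb genes counted 4 of 14 higher and 1 lower, with 5 lower without YFP control 1. Of 20 actin and related genes 5 rose and 5 fell, with 1 higher without either naive array, and with Lgals1, galectin-1, up by 1.99 ± 0.25 and the calcium-binding S100a6 down by 1.76 ± 0.33. Actb, the usual reference gene, read 11.18 and 9.91 in YFP control against 10.80 and 10.63 and was not called, with a gap of more than 1 between the YFP control arrays. Of 17 aminoacyl-tRNA synthetases 4 rose and 1 fell, and the counts were 1 higher without naive 2 and 5 lower without YFP control 1. Of 14 coinhibitory genes 2 rose and 4 fell, with 2 lower without naive 2. Of 20 quiescence genes 2 rose and 3 fell, with 9 lower without YFP control 1. Of 18 autophagy and lysosome genes 2 rose, 5 without YFP control 2, and 1 fell. Of 11 germinal centre genes 2 rose, 0 without either naive array, and 0 fell. Of 10 regulators of G protein signalling 1 rose and 1 fell. Some lists counted 0 called in a direction but had genes in that direction with an unadjusted limma p under 0.05. These were 1 heat shock chaperone, 1 DNA replication gene, 1 gene of the Toll-like receptor list and 3 genes of amino acid supply. Others were 1 clock gene, 1 germinal centre gene and 1 dendritic cell marker. Such genes numbered 0 in the T cell, NK cell, erythroid, neutrophil, platelet and mitosis lists. They also numbered 0 in the aryl hydrocarbon receptor, GIMAP, glucocorticoid, p200 and B lineage factor lists.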

How the data were processed

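Each array gives log2 expression per probe set of 1 mouse spleen B cell sample, deposited by the authors as log2 values made by RMA (background correction, quantile normalization and summary of probes) with the package oligo, per the submitters' processing notes. Versions and the genome build are not given in the sources used here. Of 25349 probe sets 22225 carried 1 gene symbol in the platform annotation, and 616 with several symbols were left out. The brightest probe set stood for a gene with several, giving 21515 genes. A linear model with 1 mean for each of 4 groups was fitted to all 8 arrays with limma 3.58.1 in R 4.3.3 (4 residual and 5.75 prior degrees of freedom), checked on simulated data, and p-values were adjusted over all genes by Benjamini-Hochberg. The number of arrays limits the precision.

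The comparison, its members and the 63 gene lists (1214 distinct genes, 101 not analysed here, 1096 autosomal and measured) were chosen with earlier results of these data known. Genes were named by rule: the 15 highest and 15 lowest called genes with settled names and no overlap between groups, up to 5 called members a direction and 3 bright uncalled members of each list, whole lists for stress, clock, cyclin, cholesterol, costimulation, transcription factor, strain and marker lists, and the genes farthest apart between arrays of a group. Other genes, the RNA classes and the comparison with host genes were chosen after the values were seen. Genes on X, Y and the mitochondrial genome were left out. Promoter and microRNA sequences are RefSeq's.
Alternatives were another variance model, the 4 compared arrays alone, a filter on dim genes, median and quantile scaling, the mean of probe sets, adjustment over autosomal genes, a replicate block and leaving out each array.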

Additional observations from a re-analysis of the deposited data

How the results depend on the processing

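The count of called genes depended most on which arrays shaped the error. With the 4 compared arrays alone it was 1451 (928 higher, 523 lower) in place of 3800. In that fit the counts called higher were 3 for DNA replication (8 in the reported fit), 4 for mitosis (9) and 2 for cyclins (7). They were 1 for B lineage factors (5) and 12 for mitochondrial ribosomal proteins (22), and stayed at 9 for cholesterol synthesis. The counts called lower were 9 for T cell markers (9), 13 for erythroid markers (15) and 45 for small nucleolar RNAs (50). Leaving out 1 array gave 2570 to 5709 called, 1459 to 2946 higher, 1099 to 2763 lower and 1479 to 2549 with at least 1 log2, the highest always without YFP control 1. Subtracting array medians called 3597 genes (66.6% higher) and quantile normalization 4449 (50.1% higher), against 58.4% higher in the reported fit. The replicate numbers do not pair the samples by the labels, and the gap between the YFP control arrays correlated with that between the naive arrays at r = 0.0749 over 20581 genes. With the replicate block 3632 genes were called, 2135 higher and 1497 lower. The variance model (3827), the filter on dim genes (3603), the mean of probe sets (3788) and adjustment over autosomal genes (3791) moved the count less.

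Of 621 named genes 142 lost their call with the 4 compared arrays alone and 88 without either naive array. The 621 include genes that were not called with all arrays and so had no call to lose. Chordc1, Scd1, H2-DMa and Tnfrsf13c were among the genes that lost their call with the 4 compared arrays alone. Lifr, Mir5099, Ppdpf and Unc93b1, uncalled with all arrays, were called with the opposite sign with 1 YFP control array left out. Lifr read 0.98 without array 1 and -1.25 without array 2. Without array 1 and array 2 in turn Mir5099 read -1.19 and 1.11, Ppdpf -1.46 and 1.23, and Unc93b1 -0.71 and 0.63. Other uncalled named genes also had differences of both signs over the fits that left out 1 array. Examples were Actb, from -0.805 to 0.465, and Acly, from -0.485 to 0.545. The cause was not tested.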
